A study of Caenorhabditis elegans with 2 samples.

Results

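The strong autosomal regions away from gene starts were 565 of the 1000 autosomal regions with the highest signal in the list called on both replicates together, which held 30000 regions, 24694 of them on the autosomes. A region was kept when its summit lay more than 500 bp from every annotated protein-coding transcript start. The other 435 of the first 1000 lay at gene starts. All lay on chromosomes I to V, and the X chromosome and the mitochondrial genome were left out. These regions are called strong distal regions from here on. They were chosen by the authors' signal value and by distance, so neither is a finding, and both are given as a description.

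Chromatin immunoprecipitation and sequencing (ChIP-seq) was performed on whole L3 larvae of the Caenorhabditis elegans strain OP373, with the sex labelled as males and females pooled. The strain carries the mutation unc-119(tm4063) III and the transgene wgIs373, an insertion for eGFP-tagged nhr-67, and the antibody is labelled only as nhr-67. There were 2 biological replicates of this 1 group and no second condition, and the shared control was not analysed here. Whole animals were used, so the cells in which a region was bound cannot be told apart, and the number of reads is unknown because the files hold none. No strong distal region lay within 40 kb of nhr-67 or unc-119 (0 at each), the gene tagged in the transgene and the gene mutated in the strain. Of strong regions at gene starts, 1 lay within 40 kb of nhr-67 and 0 of unc-119. The gene nhr-67 spans positions 11169748 to 11174791 of chromosome IV. Strong distal summits at 11127509 and 11224633 lay outside the 40 kb limit on either side. No share of other regions stands beside these counts, so nothing is read from them.

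NHR-67 is a nuclear hormone receptor of the tailless family. Work in C. elegans ties it to the anchor cell, the uterus, the vulva and several neuron types. Nuclear receptors bind DNA through zinc fingers that read short half-sites, and they can act at promoters or at elements farther from a gene, in introns or between genes. Many C. elegans transcripts receive a spliced leader in trans, which removes their true 5′ end, and a summit more than 500 bp from an annotated start can still lie near an unannotated one. Non-coding RNA genes have starts of their own, which the distance rule did not use.

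Sequences within 50 bp either side of the summit are given first for strong distal regions beside small RNA genes, because such regions were among the highest in signal. They come from the RefSeq genome sequence of WBcel235 (ce11), on the + strand, and capitals mark the bases inside an annotated small RNA gene. In the window on chromosome V with 2 blocks of capitals, bases 1 to 78 lie in C51F7.4, whose gene spans positions 12303599 to 12303693 and holds the summit, and bases 93 to 101 lie in C51F7.3.
ZK994.7 snoRNA, in an intron of pxn-1, chrV:8500498-8500598: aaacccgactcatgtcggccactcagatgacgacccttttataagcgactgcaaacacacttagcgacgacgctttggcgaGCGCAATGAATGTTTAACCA
R07E5.16 snRNA, in an intron of dhc-4, chrIII:10989613-10989713: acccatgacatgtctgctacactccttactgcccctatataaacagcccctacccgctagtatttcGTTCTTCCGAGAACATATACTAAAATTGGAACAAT
C51F7.4 snoRNA (first capitals) and C51F7.3 snoRNA (last capitals), chrV:12303616-12303716: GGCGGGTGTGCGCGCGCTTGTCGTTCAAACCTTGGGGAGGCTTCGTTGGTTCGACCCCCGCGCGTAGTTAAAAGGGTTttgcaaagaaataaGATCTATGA
C16D9.10 snoRNA, chrV:8247937-8248037: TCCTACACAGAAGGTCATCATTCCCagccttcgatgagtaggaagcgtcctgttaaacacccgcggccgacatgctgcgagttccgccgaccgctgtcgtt
C04G6.12 snoRNA, in an intron of mpk-2, chrII:5105187-5105287: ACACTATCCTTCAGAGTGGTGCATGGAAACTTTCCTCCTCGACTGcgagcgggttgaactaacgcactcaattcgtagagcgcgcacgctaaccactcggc

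The windows of 4 intergenic or intronic regions with high signal, whose nearest transcript start was not that of a small RNA gene, are given next. The summit near ins-13 lay 92 bp from the ncRNA gene C17C3.23 and 192 bp from the start of the snRNA gene sls-2.2. Capitals mark the 6 hexamers that were most frequent relative to lower-ranked distal regions, on either strand. The window near ins-13 and the window in usp-39 held none of them, and the usp-39 window was a run of short A-rich repeats.
near ins-13, chrII:5543740-5543840: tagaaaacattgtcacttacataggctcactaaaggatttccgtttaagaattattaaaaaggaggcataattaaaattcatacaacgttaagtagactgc
intron of mdt-26, chrII:5661802-5661902: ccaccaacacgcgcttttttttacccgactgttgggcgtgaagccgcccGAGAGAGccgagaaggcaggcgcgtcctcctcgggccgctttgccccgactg
near K12H4.5, chrIII:8043896-8043996: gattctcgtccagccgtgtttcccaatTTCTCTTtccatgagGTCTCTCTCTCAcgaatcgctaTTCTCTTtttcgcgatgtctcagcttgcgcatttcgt
intron of usp-39, chrII:2570813-2570913: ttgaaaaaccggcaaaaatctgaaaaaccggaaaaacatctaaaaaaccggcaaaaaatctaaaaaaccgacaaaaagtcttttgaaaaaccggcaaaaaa

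Regions with the alternating purine hexamer GAGAGA, or its shifted form AGAGAG, on either strand (capitals) are shown because GAGAGA was more frequent at strong distal regions than at lower-ranked ones in the pooled list and in both replicate lists.
near mir-52, chrIV:14033891-14033991: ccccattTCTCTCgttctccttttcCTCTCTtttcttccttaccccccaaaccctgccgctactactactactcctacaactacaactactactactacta
intron of W06H8.6, chrV:6224618-6224718: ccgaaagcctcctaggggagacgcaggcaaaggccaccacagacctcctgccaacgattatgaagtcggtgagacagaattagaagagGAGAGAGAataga
intron of vhp-1, chrII:5337008-5337108: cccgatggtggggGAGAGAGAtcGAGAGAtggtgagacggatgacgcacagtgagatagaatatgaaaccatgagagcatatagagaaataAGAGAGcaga

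All 565 regions were 256 bp wide. The authors' signal value, in the caller's own units, ran from 15.7 to 48.8 with a median of 17.9 (quartiles 16.6 and 20.5). The deposited −log10 q was 3.14 for every region. The share of distal regions was lowest at the top of the ranking. It was 34.0% among ranks 1 to 100 (34 of 100, exact Clopper-Pearson 95% interval 24.8 to 44.2), 55.3% among ranks 101 to 250, 54.0% among 251 to 500, 61.6% among 501 to 750 and 63.6% among 751 to 1000. Past rank 1000 it was 69.1% to 2000, 70.6% to 5000 and 72.8% beyond that. These intervals, and all others here, cover counting error over regions only.

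**Figure D1:**
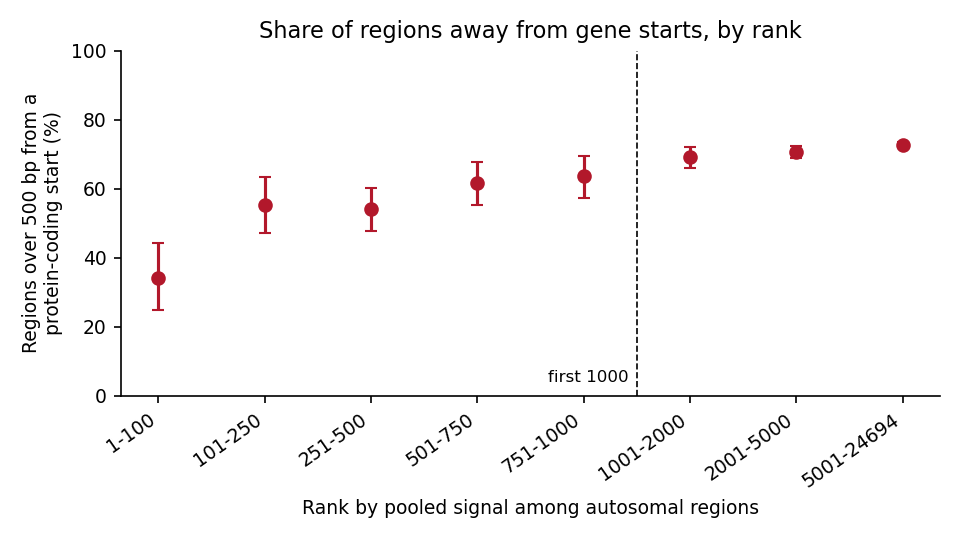
Percent of autosomal regions whose summit lay over 500 bp from a protein-coding start (y axis), by rank of the pooled signal (x axis); points are shares and bars exact 95% intervals over regions. The share was 34.0% in the first 100 ranks and 72.8% beyond rank 5000.

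At the lower edge of the signal, the last distal regions inside the first 1000 were nearest M117.1, aqp-2 and ZC266.1, all at 15.7, and the first outside were nearest B0284.3, acp-7 and ncs-2, all at 15.6. At the edge of distance, the regions just inside lay 513 bp from gstk-1, 513 bp from dhhc-4 and 515 bp from asd-1. Those just outside lay 491 bp from hmg-6, 491 bp from C39B5.14 and 493 bp from ptp-3.

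The highest signal belonged to a region 746 bp from the start of egg-5, which encodes a pseudophosphatase of egg activation. Its signal was 48.8 in the pooled list, 32.9 (rank 55 of all regions) in replicate 1 and 17.8 (rank 36) in replicate 2. Its summit at position 4172335 of chromosome I lay 29 bp from the start of the non-coding RNA gene R12E2.18. The next lay 67 bp from the start of mir-52, a microRNA gene of the mir-51 family, with 47.7 in the pooled list, 40.3 (rank 41) in replicate 1 and 14.8 (rank 51) in replicate 2. Its nearest protein-coding start, that of Y37A1B.7, was 9839 bp away. Both regions were thus near the top of each replicate's own list. Scales differ between lists, so the values are not compared across them.

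Some other regions did not stand high in both replicates. The region 1074 bp from ins-13, which encodes an insulin-like peptide, had 40.5 in the pooled list, 40.5 (rank 40) in replicate 1 and 6.48 (rank 1236) in replicate 2. A region 541 bp from K12H4.5 had 38.1 in the pooled list, 32.8 (rank 56) in replicate 1 and 4.82 (rank 3574) in replicate 2. The summit in intron 8 of usp-39, whose relatives act in splicing, had 34.1 in the pooled list and 24.1 (rank 111) in replicate 1, and no region in replicate 2. These 3 stood high in replicate 1 and low or not at all in replicate 2. The summit in intron 4 of Y111B2A.12 had 32.7 in the pooled list and ranked 278 in replicate 1 (19.0) and 45 in replicate 2 (15.5). A summit in intron 2 of mdt-26, a Mediator subunit gene, had 38.6 in the pooled list and ranked 113 in replicate 1 and 71 in replicate 2 (12.7). Both of these were among the first 1000 regions of each replicate's list.

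Among the rest of the 20 highest were regions nearest nlp-40, a neuropeptide gene (pooled signal 31.6), ZK185.1 (30.6), zfp-1, a zinc finger gene related to AF10 (30.5), ogt-1, the O-GlcNAc transferase gene (30.0), and ppfr-1, a protein phosphatase 4 regulatory subunit gene (29.8). They also included bet-1, a double bromodomain gene (29.7), Y57G11C.22 (29.6), ZK757.2 (29.6), miz-1 (29.2) and lgc-26, a ligand-gated ion channel gene (29.2). Of these 10, the regions nearest ZK185.1, ppfr-1 and ZK757.2 had none in replicate 2. The region nearest lgc-26 ranked 173 in replicate 1 (21.4) and 41 in replicate 2 (16.3), and its sequence recurred in the genome, with a 36-base word present in 9 copies.

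**Figure D2:**
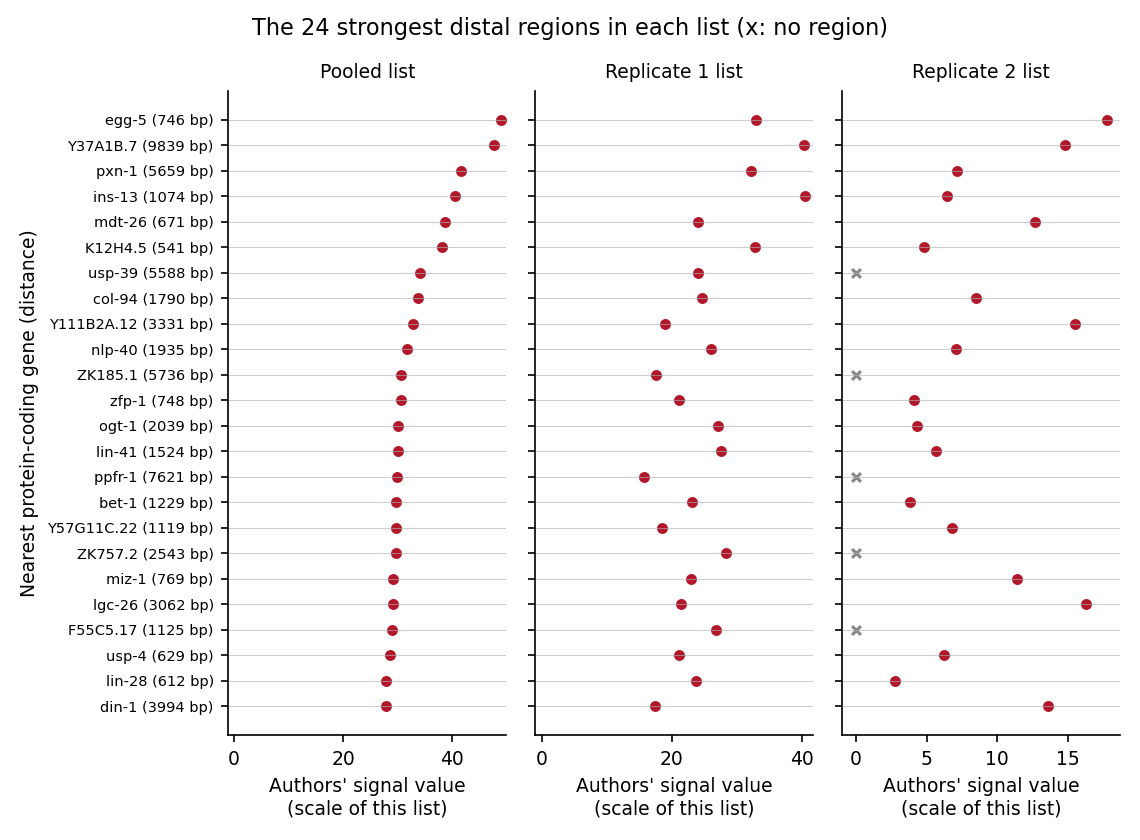
Authors' signal value (x axis, on the scale of each list) of the 24 strongest distal regions, labelled by nearest protein-coding gene and distance; points are single values and crosses at 0 stand for no region in that list. All 24 had a region in replicate 1 and 19 had one in replicate 2.

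A region in the replicate 1 list overlapped 541 of the 565 strong distal regions by at least 1 bp (95.8%, interval 93.7 to 97.3), against 96.6% of the strong regions at gene starts, 65.2% of the 17138 lower-ranked distal regions and 66.8% of all autosomal ones. In the replicate 2 list, 274 had a region (48.5%, interval 44.3 to 52.7), against 63.9% (59.2 to 68.4) of strong regions at gene starts, 25.1% of lower-ranked distal ones and 27.0% of all. Both replicates had a region at 256 (45.3%, interval 41.2 to 49.5), against 60.7% (55.9 to 65.3) at gene starts, 11.4% of lower-ranked distal regions and 13.6% of all. Replicate 1 alone had 285, replicate 2 alone 18 and neither replicate 6. The pooled signal was made from these replicates, so these counts describe the choice and nothing is read from them.

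The replicate lists differed in size, with 30000 regions in replicate 1 and 19385 in replicate 2. The strong distal regions had a median rank of 858 in replicate 1, against 826 for the strong regions at gene starts, and of 4010 in replicate 2, against 2030. Of the 565, 295 (52.2%) stood among the first 1000 regions of replicate 1, against 52.2% of strong regions at gene starts, and 71 (12.6%) among the first 1000 of replicate 2, against 23.7%. Both conditions held for 33 regions, with no share of other regions to set beside it, so nothing is read from this count. Across the 256 regions found in both replicates, Spearman's rho between the replicate signals was -0.05, a description over regions that share their libraries and were picked by the pooled signal.

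**Figure D3:**
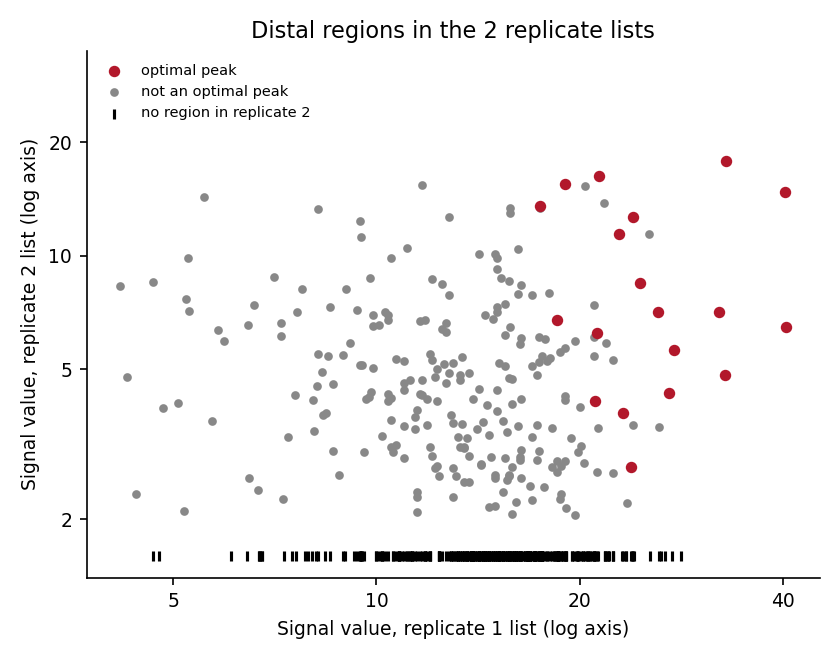
Signal value in the replicate 2 list (y axis, log) against that in the replicate 1 list (x axis, log) for strong distal regions; each point is 1 region, red where it is an optimal peak, and ticks at the bottom are regions with none in replicate 2. The 256 regions in both lists had a Spearman's rho of -0.05.

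Those 33 regions in the upper part of both replicate lists included 11 of the 24 with the highest pooled signal: the regions near egg-5, mir-52, the snoRNA gene in pxn-1, mdt-26, the snRNA gene in dhc-4, Y111B2A.12, nlp-40, Y57G11C.22, miz-1, lgc-26 and din-1. Others lay in or near genes of known enzymes and regulators. The summit in a coding exon of icl-1, the glyoxylate cycle enzyme gene, had 26.1 in the pooled list, 25.3 (rank 103) in replicate 1 and 11.4 (rank 99) in replicate 2. A summit in intron 5 of vhp-1, a MAP kinase phosphatase gene, had rank 125 of the autosomal regions in the pooled list, 17.5 (rank 389) in replicate 1 and 13.4 (rank 64) in replicate 2. The same count took in regions nearest mnk-1, a kinase gene (25.6), oaz-1, the ornithine decarboxylase antizyme gene (25.7), acs-4, an acyl-CoA synthetase gene (22.0), cht-2, a chitinase gene (19.1), and zag-1, a zinc finger homeobox gene (18.8).

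The authors' optimal peaks, which passed their reproducibility threshold, overlapped 24 strong distal regions (4.25%, interval 2.74 to 6.25), against 59 of 435 at gene starts (13.6%, interval 10.5 to 17.1), 0.0117% of lower-ranked distal regions and 0.344% of all autosomal regions. The 83 autosomal optimal peaks were exactly the first 83 autosomal regions by pooled signal, so this count is fixed by the ranking. The weakest strong distal region among them had a signal of 27.9, and the strongest that was no optimal peak had 27.8. Of the 24, 13 were intergenic, 9 intronic and 2 exonic. All 24 were among the first 1000 of replicate 1, and 11 were among the first 1000 of replicate 2.

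Position within the annotation was not used by the rule beyond the distance. Intergenic summits made up 223 of the 565 (39.5%, interval 35.4 to 43.6), against 31.6% (30.9 to 32.3) of lower-ranked distal regions. Intronic summits made up 156 (27.6%, with an interval that reached up to 31.5), against 38.7% (37.9 to 39.4). Coding exons held 109 (19.3%, against 21.4%), UTR exons 42 (7.43%, against 5.01%) and exons of non-coding transcripts and pseudogenes 35 (6.19%, against 3.28%). In the replicates' own lists the last share was 6.29% (4.55 to 8.43) against 3.47% in replicate 1 and 3.56% (2.24 to 5.34) against 3.11% in replicate 2, where the interval took in the lower-ranked share. The strong distal regions were thus more often intergenic and less often intronic than lower-ranked ones, by more than the counting error.

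The same rule was applied to each replicate's own list for the spread between replicates, giving 652 regions in replicate 1 and 618 in replicate 2. These lists went into the pooled one and are not independent of it. The intergenic share was 34.5% against 30.6% of lower-ranked distal regions in replicate 1, and 40.5% against 33.3% in replicate 2. For introns it was 30.5% against 36.7% in replicate 1, and 35.8% against 38.8% in replicate 2. Both directions were thus the same in each list. In replicate 2 the intronic interval, 32.0 to 39.7, took in the lower-ranked share, and in replicate 1 the intergenic interval, 30.9 to 38.3, lay just above it. Strong regions at gene starts were intergenic in 59.8% and intronic in 17.0%.

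Among the intronic summits, 21 of the 154 that could be placed lay in the gene's first intron (13.6%, interval 8.64 to 20.1), against 16.1% of lower-ranked ones, and the median intron was 910 bp long, against 950 bp. Distance to the nearest protein-coding start had a median of 1580 bp (quartiles 896 and 2610), against 1700 bp. The summit was 501 to 1000 bp away in 162 regions (28.7%, against 25.3%), 1001 to 2000 bp in 192 (34.0%, against 32.1%), 2001 to 5000 bp in 161 (28.5%, against 32.3%) and farther in 50 (8.85%, against 10.3%). The farthest lay 12295 bp from srab-24, 11384 bp from nhr-61 and 11362 bp from nhr-5. The summit lay upstream of its nearest start in 47.6% (43.4 to 51.8), against 71.5% of strong regions at gene starts and 42.5% of lower-ranked distal regions.

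The 565 regions spread over all 5 autosomes, with 100 on I, 109 on II, 116 on III, 118 on IV and 122 on V. They lay more often in the middle of the chromosome than lower-ranked distal regions did. Between 25% and 75% of the chromosome's length lay 347 (61.4%, interval 57.3 to 65.4), against 49.2% of lower-ranked distal regions and 58.9% of strong regions at gene starts. The share was above that of lower-ranked distal regions on every autosome, most on III (64.7% against 47.5%) and II (66.1% against 50.8%) and least on V, where 68 of 122 lay there (55.7%) against 1870 of 3739. In the replicates' own lists it was 59.4% against 50.4% in replicate 1 and 56.8% against 51.4% in replicate 2. As background, the arms of C. elegans autosomes recombine more and hold more repeats than the centres.

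**Figure D4:**
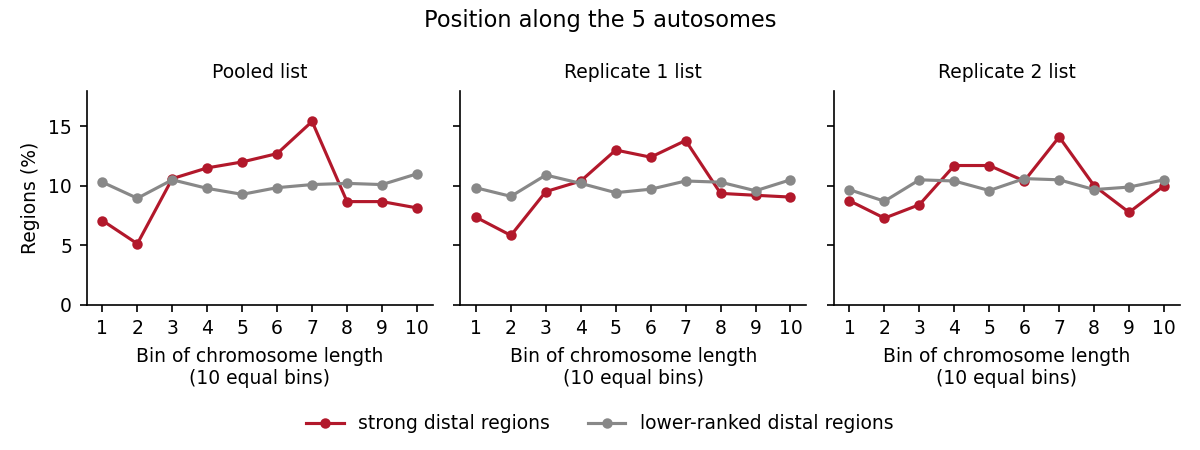
Percent of regions (y axis) in each of 10 equal bins of chromosome length (x axis, from the left end to the right) over the 5 autosomes, for strong and lower-ranked distal regions in the pooled list and in each replicate's own list. In the pooled list bin 7 held 15.4% of strong and 10.1% of lower-ranked distal regions, and bin 2 held 5.13% of strong and 8.95% of lower-ranked ones.

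Non-coding RNA genes often had the nearest start to these summits, counted at any distance. The nearest transcript start of any gene (piRNA genes left out) was that of a non-coding RNA gene for 178 (31.5%, interval 27.7 to 35.5), against 21.4% of lower-ranked distal regions. In the replicates' own lists the share was 28.5% against 21.6% in replicate 1 and 26.7% against 22.0% in replicate 2. Most, 125, were genes annotated only as ncRNA (22.1%, against 16.9%). A further 16 were snoRNA, 14 tRNA, 8 lincRNA, 6 miRNA, 6 snRNA and 3 antisense RNA genes, and 0 were rRNA genes. Pseudogenes were nearest for 19 (3.36%, against 5.93%). The nearest start was a non-coding one within 100 bp for 48 summits (8.5%, interval 6.33 to 11.1), against 7.36% (5.09 to 10.2) of strong regions at gene starts and 2.07% (1.86 to 2.3) of lower-ranked distal regions. In the replicates' own lists that share was 7.52% against 2.24% in replicate 1 and 4.53% (3.03 to 6.48) against 2.04% in replicate 2.

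The difference was larger in proportion for small RNA genes, which encode the tRNAs of translation, the snRNAs of splicing, the snoRNAs that guide RNA modification and the miRNAs that silence messages. They were nearest for 42 strong distal regions (7.43%, interval 5.41 to 9.92), against 3.38%. Such a start was the nearest and lay within 250 bp for 28 strong distal regions (4.96%, interval 3.32 to 7.08), against 0.934% (0.795 to 1.09) of lower-ranked distal regions and 4.37% (2.65 to 6.74) of strong regions at gene starts. In the replicates' own lists the share was 4.45% against 0.964% in replicate 1 and 3.24% against 0.937% in replicate 2. The 28 were 11 snoRNA (1.95%, against 0.309% of lower-ranked distal regions), 10 tRNA (1.77%, against 0.379%), 5 snRNA (0.885%, against 0.0875%) and 2 miRNA genes (0.354%, against 0.158%). In replicate 1's own list snoRNA genes had 1.99% against 0.308% and tRNA genes 1.69% against 0.349%. In replicate 2's list snoRNA genes had 0.971% (0.357 to 2.1) against 0.412% and tRNA genes 0.647% (0.177 to 1.65) against 0.347%, and both intervals took in the lower-ranked share. For snRNA genes it was 0.613% against 0.116% in replicate 1 and 1.13% against 0.0469% in replicate 2. For miRNA genes the direction turned in replicate 1, with 0.153% against 0.192%, and in replicate 2 it was 0.485% against 0.131%. A distance of 250 bp was chosen after seeing the data.

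**Figure D5:**
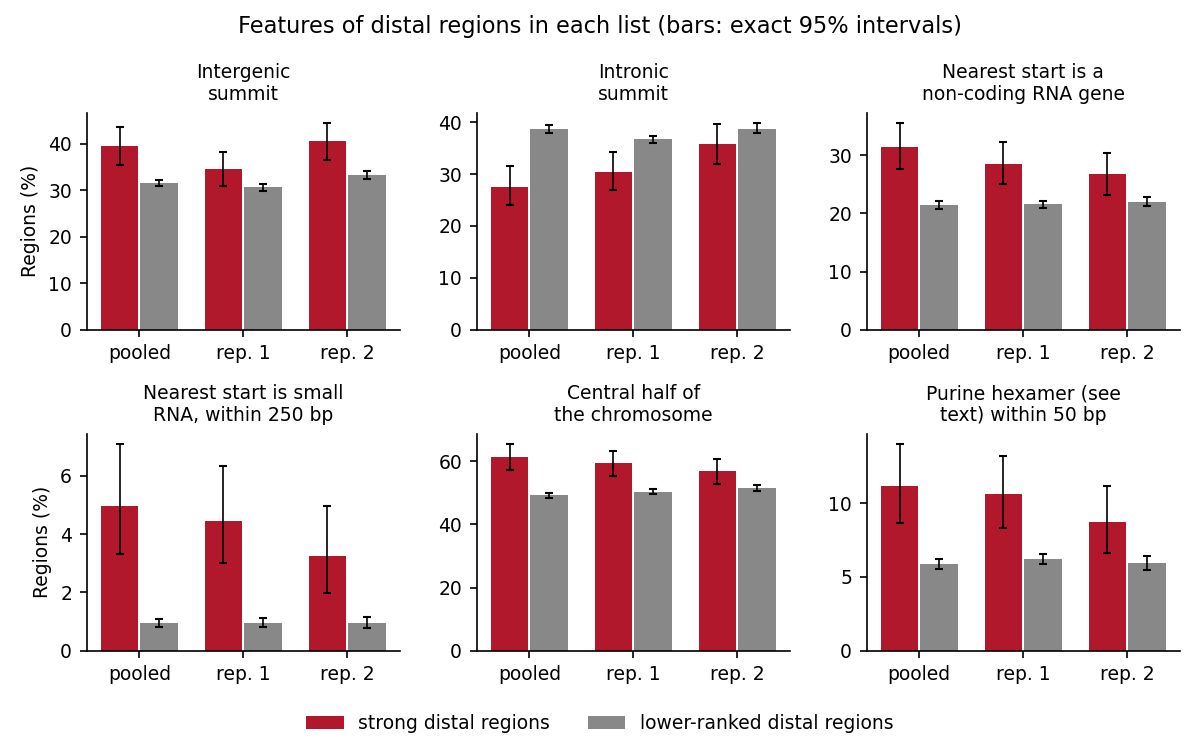
Percent of regions (y axis) with each feature, for strong (red) and lower-ranked (grey) distal regions in the pooled list and in each replicate's own list; bars are shares with exact 95% intervals over regions, and the purine hexamer is GAGAGA. The strong distal regions were higher in 5 features and lower for introns in all 3 lists, with overlapping intervals for introns in replicate 2 and for intergenic summits in replicate 1.

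The summit in pxn-1, the peroxidasin gene, lay outside the snoRNA gene ZK994.7, 31 bp from its start, and had 41.6 in the pooled list, 32.2 (rank 59) in replicate 1 and 7.12 (rank 796) in replicate 2. That in dhc-4, a dynein heavy chain gene, lay 16 bp from the snRNA gene R07E5.16 and had 33.7 in the pooled list, 24.6 (rank 108) in replicate 1 and 8.49 (rank 335) in replicate 2. A 36-base word of its sequence was present in 7 copies in the genome. The summit inside the snoRNA gene C51F7.4, with the start of the snoRNA gene C51F7.3 nearest at 42 bp, had 28.9 in the pooled list and 26.8 (rank 85) in replicate 1, and no region in replicate 2.

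Of the other named regions nearest a small RNA gene, T03F7.8 was 84 bp away, C16D9.10 26 bp, F59C6.15 19 bp, C04G6.12 6 bp, C07A9.14 112 bp and F32E10.10 18 bp, all snoRNA genes. ZK20.9, also a snoRNA gene and 2378 bp away, was the nearest start to the optimal peak at din-1. The tRNA genes were F53F8.t1 at 59 bp, F47G6.t1 at 33 bp, T03E6.t1 at 378 bp and ZC412.t2 at 709 bp. The pooled signals of these 11 regions lay between 21.5 and 27.9. All of them had a region in replicate 1, and those at C16D9.10 and ZC412.t2 had none in replicate 2.

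The motif GTTCGANNC, the form of the internal B box that tRNA genes use to recruit their transcription machinery, was searched on both strands after the printed sequences had been seen. It lay within 50 bp of 14 summits (2.48%, interval 1.36 to 4.12), against 0.904% (0.768 to 1.06) of lower-ranked distal regions and 0.92% of strong regions at gene starts. Of the 28 regions whose nearest start was a small RNA one within 250 bp, 7 held it (interval 10.7% to 44.9%). Of such lower-ranked distal regions, 19 of 160 did (11.9%). Of the other 537 strong distal regions, 7 did (1.3%, interval 0.526 to 2.67), against 136 of 16978 lower-ranked ones (0.801%). Both intervals took in the lower-ranked share, so no difference was detectable within either part. In replicate 1's own list, the interval beside small RNA starts, 10.3 to 43.5, lay just above the lower-ranked 9.64%. In replicate 2's list, 3 of 20 did, against 10 of 100. Over all strong distal regions of the replicates' own lists, the share was 2.45% against 0.9% in replicate 1 and 1.13% against 0.731% in replicate 2. In replicate 2 its interval, 0.457 to 2.32, took in the lower-ranked share. A match is a description of the letters, not a bound site.

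Over all strong distal regions, repeated sequence was not detectably more or less frequent when words of 36 bases were used. A 36-base word near the summit occurred more than once in the genome for 17 of them (3.01%, interval 1.76 to 4.77), against 3.81% of lower-ranked distal regions. By nearest start, these took in 6 of the 14 regions at tRNA genes, 1 of 6 at snRNA genes and 1 of 16 at snoRNA genes. At miRNA genes there were 0. These counts have no share of lower-ranked regions beside them. The most copies, 35, belonged to the tRNA gene Y82E9BR.t1 in an intron of lelo-2. No 2 strong distal regions shared such a word (0 pairs). Reads from a word present in several copies may not be placed uniquely, and the authors' treatment of such reads was not given in the sources used here. Words of 24 bases recurred at 11.7% of strong against 16.4% of lower-ranked distal regions, and words of 50 bases at 1.59% against 1.37%.

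Base composition within 50 bp of the summit had a median of 36.6% GC (95% interval of the median 35.6 to 37.6), against 39.6% at strong gene starts and 34.7% in lower-ranked distal regions. It was 36.6% against 35.6% in replicate 1 and 32.7% against 33.7% in replicate 2, so the direction turned in replicate 2. The half-site AAGTCA, known for receptors of the tailless family, lay within 50 bp of 27 summits on either strand (4.78%, interval 3.17 to 6.88), against 4.1% of lower-ranked distal regions and 2.53% of strong regions at gene starts. The interval takes in the lower-ranked share, so no difference was detectable with this number of regions.

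Among all possible hexamers, with reverse complements merged, those most in excess near strong distal summits were overlapping forms of one purine pattern. GAGAGA lay within 50 bp of 63 summits (11.2%, interval 8.68 to 14.0), against 5.87% of lower-ranked distal regions and 9.43% of strong regions at gene starts. AGAGAA was near 14.0% against 9.27%, AGAGAG near 9.2% against 4.88%, CTCTCA near 8.5% against 4.23%, AGAGAC near 7.26% against 3.71% and AAGAGA near 11.2% against 7.65% of lower-ranked distal regions. Among strong regions at gene starts the shares were 11.3%, 9.2%, 6.21%, 6.67% and 11.3% in the same order. AGAGAG and AAGAGA were thus about as frequent there, and the excess was not particular to distal regions. These hexamers share bases and are not separate observations. GAGAGA was near 10.6% against 6.21% in replicate 1 and 8.74% against 5.93% in replicate 2. All but CTCTCA, which had 4.05% against 4.47% in replicate 2, kept their direction in both replicate lists.

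The hexamers most in deficit were runs of A and T. AAAAAT lay near 43.0% of strong against 53.4% of lower-ranked distal regions, TAAAAA near 26.2% against 36.3%, AAAATT near 223 of 565 against 8406 of 17138, AAAAAA near 38.1% against 46.4%, AAATTT near 24.4% against 31.2% and CAAAAA near 32.2% against 38.6%. Among strong regions at gene starts the shares were 51.7%, 31.0%, 37.0%, 41.8%, 19.3% and 35.4% in the same order. AAAATT and AAATTT were rarer there than at strong distal regions, and the rest were more frequent. In replicate 2 the direction turned for TAAAAA (38.8% against 37.0%) and AAAAAA (47.9% against 47.6%). These 12 hexamers were named because their differences were the largest, so their sizes in the pooled list are a description.

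The 565 regions lay nearest 534 protein-coding genes, and the nearest gene need not be the one a region acts on. Most, 517, had no other of the 1000 strong autosomal regions within 2000 bp, 36 had another strong distal region there and 16 a strong region at a gene start. Only 28 genes had 2 or more, and 2 genes had more than 2: Y17D7C.2 with 4 and zag-1 with 3. Pairs occurred at daf-16, the FOXO gene of insulin signalling, at mef-2, the MADS-box transcription factor gene, at sca-1, the SERCA calcium pump gene, and at sem-4, a spalt-like zinc finger gene.

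Of 16 lists of genes, the larval timing list had 6 strong distal regions at 5 of its 14 autosomal genes (1.06%), against 0.385% of lower-ranked distal regions and 0.23% of strong regions at gene starts. No interval is given for the gene lists, and these small counts are a description. The region 1524 bp from lin-41, the RNA-binding target of let-7, had 30.0 in the pooled list, 27.6 (rank 80) in replicate 1 and 5.64 (rank 2107) in replicate 2. That 612 bp from lin-28, an RNA-binding regulator of larval fates, had 27.9 in the pooled list, 23.8 (rank 118) in replicate 1 and 2.75 (rank 12650) in replicate 2. The stronger of 2 regions nearest din-1, a corepressor partner of DAF-12, lay 3994 bp away with 27.9 in the pooled list, 17.5 (rank 392) in replicate 1 and 13.6 (rank 61) in replicate 2. Of these 3, the region nearest din-1 was the only one among the first 1000 of replicate 2. The weaker one nearest din-1 was 726 bp away (16.9), and further regions lay nearest sea-2 (16.7) and nhr-23, the moulting receptor (16.3).

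Nuclear hormone receptor genes had 9 (1.59%, against 1.7%), among them nhr-34 (22.9), nhr-142 (22.9) and nhr-5 (20.2). Those nearest nhr-34 and nhr-5 had no region in replicate 1, and that nearest nhr-142 had none in replicate 2. Replicate values are not given for every region named from the gene lists. Collagen and cuticle genes had 7 (1.24%, against 0.939%), with col-94 (33.7), whose region lay within dhc-4, dpy-13 (26.7), col-125 (23.6) and dpy-4 (22.2) highest in signal. The region at col-125 had none in either replicate list. Homeobox genes had 5 (0.885%, against 0.799%), 3 of them at zag-1 and 1 each at unc-4, a motor neuron gene (19.9), and ceh-74 (16.8). Translation factors and chaperones had 5 (0.885%, against 0.403%): cct-3 of the chaperonin (21.5), eif-2A (18.6), hsp-1, the constitutive Hsp70 gene (16.8), eif-2Bgamma (16.2) and dnj-9 (15.7). The share for translation factors and chaperones was higher, 2.07%, among strong regions at gene starts.

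Lists of genes tied to the known roles of NHR-67 had few strong distal regions, and their shares of lower-ranked distal regions were small too. The anchor cell and uterus list had 2 (0.354%, against 0.303%), both at sem-4, 7605 and 8108 bp from its start. Their pooled signals were 20.2 and 16.5. The stronger ranked only 22344 in replicate 1 (5.09) and 5783 in replicate 2 (4.06). The vulva and signalling list had 1, at the Wnt gene mom-2 (18.2; 0.177%, against 0.239%). For ASE, RIA and GABA neuron genes the count was 0 (0.111% of lower-ranked distal regions), as it was for cell cycle genes (0.169%) and pan-neuronal genes (0.373%). Ribosomal protein genes had 1, rps-27 (19.8; 0.177%, against 0.257%), against 13 at gene starts (2.99%). A further 5 lists had 1 each (0.177%): his-16 of the histones (against 0.0408%), unc-89 of muscle (against 0.233%), asp-1 of the intestine (against 0.0817%), nhr-23 of the hypodermis (against 0.175%) and pie-1 of the germline (against 0.0934%). Among strong regions at gene starts, histones had 0.46%, the germline list 0.23% and the muscle, intestine and hypodermis lists 0.0%.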

How the data were processed

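Each replicate was 1 ChIP-seq library of the same group, and fragments were 150 to 350 bp long per the labels. The authors deposited regions for each replicate, for both together and for optimal peaks, on ce11. Which aligner and caller they used was not given in the sources used here. Both the signal column and the −log10 q column are the authors' deposited values, used only to describe and rank within a list. The ce10 lists were not used.

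Summits were annotated with Ensembl release 115 and RefSeq sequence of WBcel235, in Python 3.11.15 with pandas 2.3.3, numpy 2.4.6, SciPy 1.17.1 and matplotlib 3.10.9. Coordinates are 1-based. Intron numbers count gaps between the merged exons of all transcripts. Overlap was 1 bp or more. Hexamers and 36-base words were searched within 50 bp of summits, on both strands. The procedures were tested on simulated data. No test compared the regions with others, since the pooled signal chose them. Named regions were the 20 highest in signal, optimal peaks, those at the limits, the farthest 3, those at small RNA genes (15) or listed genes (20), and the 6 hexamers with the largest difference in each direction. Other names were chosen after their values were seen.

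The members, gene lists and features were chosen with earlier results of these data known. Nothing says that the replicates came from separate cultures beyond the label biological replicate.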

Additional observations from a re-analysis of the deposited data

How the results depend on the processing

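No paired analysis was possible because there is 1 group and no comparison between groups. Taking the first 500 or the first 2000 autosomal regions gave 252 and 1256 strong distal regions. With these, 54.4% and 37.9% had a region in both replicates and 9.52% and 1.91% were optimal peaks. The nearest start was a small RNA one within 250 bp for 8.33% (against 0.957%) and 3.11% (against 0.906%). AAGTCA was near 1.59% with the first 500, where it fell below the lower-ranked share of 4.16%. With the first 2000, the nearest start was non-coding for 27.6% (against 21.3%), and the median GC was 35.6% (against 34.7%). Regions over 1000 bp from starts gave 36.2% (against 25.5%) nearest a non-coding start and 35.6% GC (against 34.7%). Those over 250 bp gave 35.6% GC (against 34.7%). Counting the starts of every gene other than piRNA genes gave 19.6% (against 15.5%) nearest a non-coding start and 1.28% (against 3.61%) with a recurring word. The median GC was then 35.6% (against 34.7%), and by construction every region whose nearest start was a small RNA one within 250 bp was removed. Overlap of at least 50% of each region or summits within 100 bp gave 35.4% and 28.8% in both replicates. Recurring words were at 5.31% (against 7.26%) within 100 bp, and at 1.59% (against 1.37%) and 11.7% (against 16.4%) with words of 50 and 24 bases. AAGTCA was near 2.3% (against 1.87%) within 25 bp and 10.4% (against 8.65%) within 100 bp. Leaving out 1 replicate gave 618 to 652 regions, 25.9% to 32.5% in both replicates, 2.1% to 3.68% optimal, 34.5% to 40.5% intergenic, 26.7% to 28.5% nearest a non-coding start, 3.24% to 3.53% with a recurring word, 4.53% to 5.21% with AAGTCA and 32.7% to 36.6% GC. Against lower-ranked distal regions, the direction was kept in all alternatives run for the intergenic, intronic, central, GAGAGA and non-coding shares. It turned in 2 of 9 for AAGTCA, 2 of 11 for recurring words and 1 of 9 for GC. The cause was not tested. Depth is unknown, and 565 regions limit a share near 5% to about the intervals printed.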
